A study of Mus musculus with 6 samples.

Results

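Astrocyte identity genes were followed in brain RNA of mice that had received cranial X-rays (IR) or a mock exposure (mock). The 31 genes were given as a list of astrocyte metabolism, transport and identity genes, and each was matched by its symbol. All 31 were among the 23057 symbols of the deposited table, and all were kept by the low-value filter, which asks that a gene average 0.5 FPKM or more across the 6 libraries (FPKM is fragments per kilobase of transcript, scaled to a library's mapped total). The IR group was 3 C57BL/6 mice given a total of 10 Gy to the head through a collimated field, with the brain taken 30 days later. The mock group was 3 C57BL/6 mice that were mock-irradiated and sampled at the same time. All mice were perfused with saline before dissection, all samples are labelled whole brain, and neither age nor sex is given in the labels.

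Astrocytes take up the glutamate and potassium that neurons release, move water, couple into networks through gap junctions, and wrap blood vessels with processes called endfeet. They turn glutamate into glutamine, store glycogen and secrete proteins that act on synapses and vessels. The set of genes an astrocyte uses also differs by place: in the mouse, astrocytes of the telencephalon, those of the brainstem and thalamus, and the Bergmann glia of the cerebellum each have markers of their own. In RNA from bulk tissue, fewer cells of a type and less RNA per cell cannot be told apart.

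RNA of genes that mark brain regions differed between the groups, which bears on every comparison below. Summed over 10 cerebellum genes, the FPKM was 41.9 to 80.2 in IR libraries and 973 to 1329 in mock libraries. Summed over 6 hindbrain genes it was 0.87 to 3.17 in IR libraries and 72.7 to 86.8 in mock libraries. Summed over 8 telencephalon genes it was 724 to 1523 in IR libraries and 154 to 443 in mock libraries, with mock 2 the lowest. Nrgn alone was at 746, 579 and 1292 FPKM in IR libraries, against 243, 44.4 and 260 FPKM in mock libraries. Of these 8 genes, 2 were called higher, 5 were not called and 1, Lamp5, was called lower (log2 change -0.94, limma adjusted p = 0.045). Regional makeup and irradiation therefore cannot be told apart in these libraries. Spearman correlations of FPKM across the 14585 genes tested were 0.964 to 0.984 between IR libraries, 0.972 to 0.987 between mock libraries and 0.913 to 0.963 between the groups.

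Few of the astrocyte identity genes changed, and those that did went both ways. Of 31 genes, 1 rose in IR brains, Mfge8, and 3 fell, Aqp4, Slc4a4 and S100b, while the other 27 were not called (limma, adjusted p under 0.05 over all genes tested). These 4 are 12.9% of the genes, beside a background of 7.72% called among all genes tested (3.48% higher and 4.24% lower). The median log2 change was -0.16, beside -0.02 over all genes tested, and 11 estimates were above 0 and 20 below. With quantile normalization the counts were 1 higher and 7 lower, beside 643 higher and 626 lower among all genes tested. The median over the 31 genes was then -0.36. No gene of the list was called lower without IR 3 or without mock 1, and none was called higher without IR 3 or without mock 3. Without mock 2 or without mock 3, 1 gene was called lower, Aqp4. With the library level of 8 telencephalon genes as a covariate, 0 were called in either direction, and 36 higher and 109 lower were called among all genes tested. That covariate was 4.42, 4.71 and 5.39 in IR libraries, against 3.95, 1.96 and 3.96 in mock libraries. It lay apart between the groups, so calls can be lost with it whatever the source of a change. A call lost in that fit does not tell regional makeup from irradiation.

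**Figure D1:**
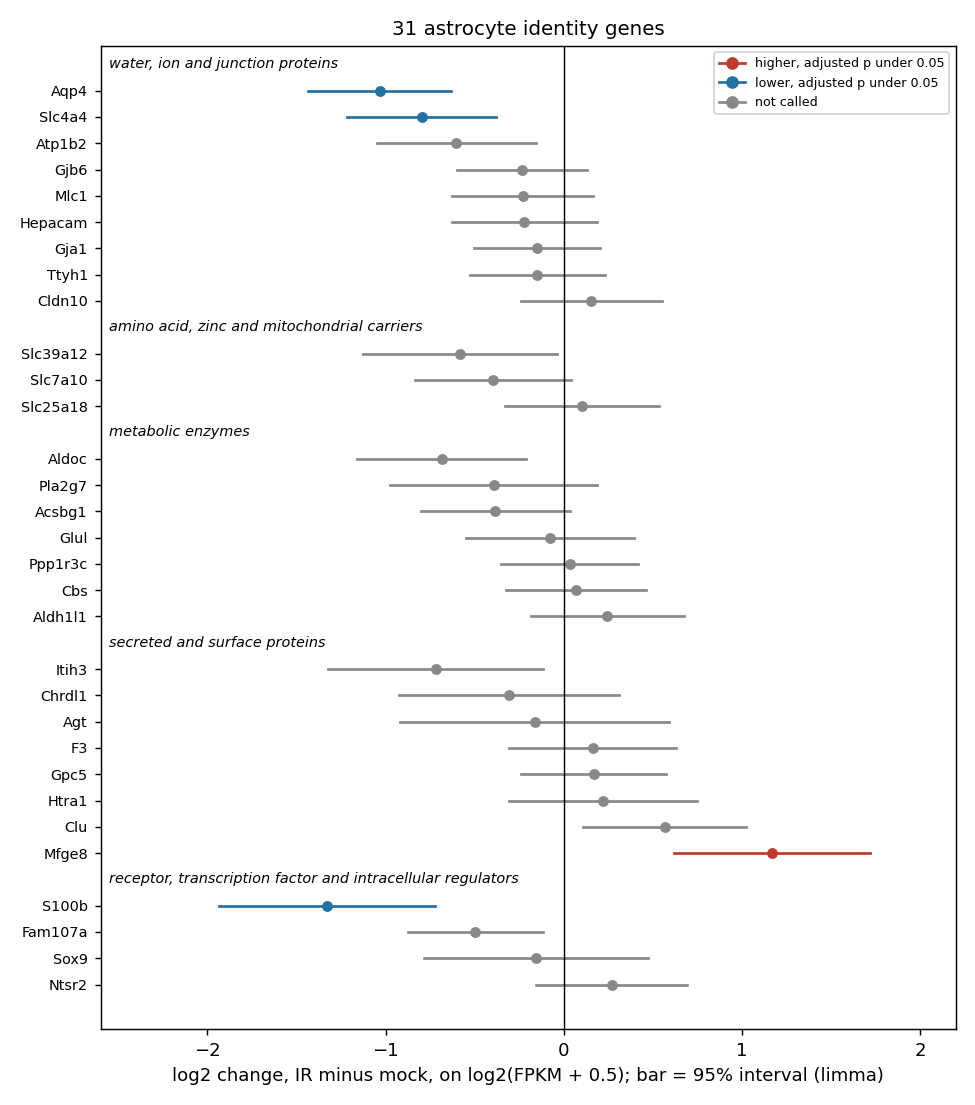
Log2 change (IR minus mock, on the log2(FPKM + 0.5) scale) of each of the 31 genes, ordered by role, with the 95% interval from limma as a bar; red marks a call higher, blue a call lower and grey no call at an adjusted p under 0.05. Aqp4, Slc4a4 and S100b lie below 0 and Mfge8 above it, and most of the other intervals include 0.

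The upstream sequences of S100b and Slc4a4, which fell, and of Mfge8, which rose, are shown. Each is the 250 bases before an annotated start in RefSeq (GRCm38.p6), 5′ to 3′ on the strand of the gene. Capitals mark TTGGC, the half-site of nuclear factor I proteins, which act in astrocyte development, and GGGCGG, the GC box, each on either strand and with no match overlapping another. The stretch of S100b is chr10:76253586-76253835 on the plus strand, that of Slc4a4 is chr5:88887010-88887259 on the plus strand, at the first of 2 starts in the table, and that of Mfge8 is chr7:79149061-79149310 on the minus strand.
S100b: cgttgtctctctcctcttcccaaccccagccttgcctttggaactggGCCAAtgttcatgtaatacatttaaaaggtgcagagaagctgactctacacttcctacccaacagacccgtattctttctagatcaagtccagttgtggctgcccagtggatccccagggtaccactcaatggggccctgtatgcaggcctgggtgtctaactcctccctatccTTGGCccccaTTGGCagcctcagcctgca
Slc4a4: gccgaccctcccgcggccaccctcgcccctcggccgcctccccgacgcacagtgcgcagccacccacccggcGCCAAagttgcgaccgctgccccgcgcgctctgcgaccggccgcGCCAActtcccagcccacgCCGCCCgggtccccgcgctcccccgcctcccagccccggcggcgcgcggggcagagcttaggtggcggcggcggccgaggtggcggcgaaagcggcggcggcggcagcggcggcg
Mfge8: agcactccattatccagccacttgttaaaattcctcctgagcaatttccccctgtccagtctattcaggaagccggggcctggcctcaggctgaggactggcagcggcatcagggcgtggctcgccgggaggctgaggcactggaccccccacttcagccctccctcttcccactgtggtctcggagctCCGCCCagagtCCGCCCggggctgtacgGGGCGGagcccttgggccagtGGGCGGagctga

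The S100b stretch held 3 matches to TTGGC and 0 to GGGCGG, the Slc4a4 stretch 2 and 1, and the Mfge8 stretch 0 and 4. The other Slc4a4 start held 1 and 0. Genes that were not called held similar counts: Cbs 3 and 2, Glul 2 and 1, and F3 0 and 3. Promoter entries were found for 26 of the 31 genes, Aqp4 not among them, with 31 starts in all. TTGGC was in 45.2% of these and in 41.5% of 32817 promoters of the same length, and GGGCGG was in 45.2% and 32.7%. Of 4 other motifs searched on both strands, TATAAA was in 12.9% of the astrocyte promoters and 12.4% of all, ACAAAG in 12.9% and 16.5%, AACAAT in 0% and 9.42%, and the full palindrome of nuclear factor I, both half-sites facing each other, in 0% and 0.0366%. The median ratio of observed to expected CpG was 0.39 over the astrocyte promoters and 0.37 over all. These matches describe letters in a window and no binding.

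The genes were measured at high levels in every library but for Sox9 and Chrdl1, which lay below the median tested gene. Their median level was 72.9 FPKM over the 6 libraries, beside 9.55 FPKM for all genes tested, and 29 of them lay above the median tested gene. Glul and Aldoc were the highest, each at about the 99.3 percentile, and Chrdl1 was the lowest at 1.78 FPKM. None was listed at 0 in any library. The median SD within a group was 0.21 on the log2 scale, beside 0.24 for all genes tested. Of the 27 genes not called, 22 had a 95% interval of the log2 change that lay within -1 to 1. This is on the log2(FPKM + 0.5) scale, which understates changes of low genes such as Chrdl1.

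Proteins of the membrane, which move water and ions and join cells, held 2 of the 3 genes that fell. Aqp4 encodes the water channel of endfeet (chromosome 18, 15389394 to 15410982, with gene coordinates from RefSeq, GRCm38.p6). It was at 28.3, 32.4 and 23.6 FPKM in IR brains, against 57.7, 64.8 and 50.9 FPKM in mock brains. The highest IR value was well below the lowest mock value. The log2 change was -1.03 (SE 0.18, limma adjusted p = 0.012). The adjusted p was 0.052 without mock 1 (log2 change -1.03) and 0.052 without IR 3 (-0.92), and 0.21 with the telencephalon covariate (-0.78).

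Slc4a4, the sodium bicarbonate cotransporter of astrocytes (chromosome 5, 88793858 to 89239656), was at 19.5, 26.1 and 19.2 FPKM in IR brains, against 44.0, 33.9 and 35.4 FPKM in mock brains. The groups did not overlap, and IR 2 lay closest to mock. Its log2 change of -0.80 (SE 0.18, limma adjusted p = 0.038) was called without IR 2, but leaving out any other single library gave an adjusted p of 0.060 to 0.14. The estimate itself ranged from -0.94 to -0.68 over the 6 single omissions. The adjusted p was also above 0.05 with no filter on low values (0.052) and with the telencephalon covariate (0.225), where the log2 change was -0.90.

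The other 7 membrane genes were not called, including both gap junction proteins. Gja1, which encodes connexin 43, was at 75.7, 71.1 and 60.9 FPKM in IR brains, against 80.5, 74.8 and 74.6 FPKM in mock brains, with IR 1 inside the mock range. Its log2 change was -0.15 (95% interval -0.51 to 0.21). Gjb6, which encodes connexin 30, was at 54.9, 51.0 and 45.9 FPKM in IR brains, against 53.0, 60.0 and 65.9 FPKM in mock brains (95% interval of the log2 change -0.60 to 0.13). Mlc1 and Hepacam encode partners in a membrane complex of endfeet, and their log2 changes were -0.23 and -0.22, with groups that overlapped. Atp1b2, the glial beta subunit of the sodium pump, was at 228, 229 and 167 FPKM in IR brains, against 343, 298 and 299 FPKM in mock brains. Its groups did not overlap, but the log2 change of -0.60 missed the threshold (limma adjusted p = 0.096, and 0.048 with quantile normalization). Ttyh1, a chloride channel family member, and Cldn10, a claudin, had log2 changes of -0.15 and 0.15.

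Since FPKM is per length, genes of this group can be set against each other within a library. The ratio of Aqp4 to Gja1 was 0.37, 0.46 and 0.39 in IR libraries, against 0.72, 0.87 and 0.68 in mock libraries. The ratio of Kcnj10, the main potassium channel of astrocytes, to Gja1 was 0.73, 0.84 and 0.57 in IR libraries, against 1.21, 1.14 and 1.34 in mock libraries. The water and potassium channels were thus lower relative to connexin 43 in each IR library. The ratio of Gja1 to Gjb6 was 1.38, 1.39 and 1.33 in IR libraries, against 1.52, 1.25 and 1.13 in mock libraries, and these values overlapped. The ratios were chosen after the values had been seen and carry no test.

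**Figure D2:**
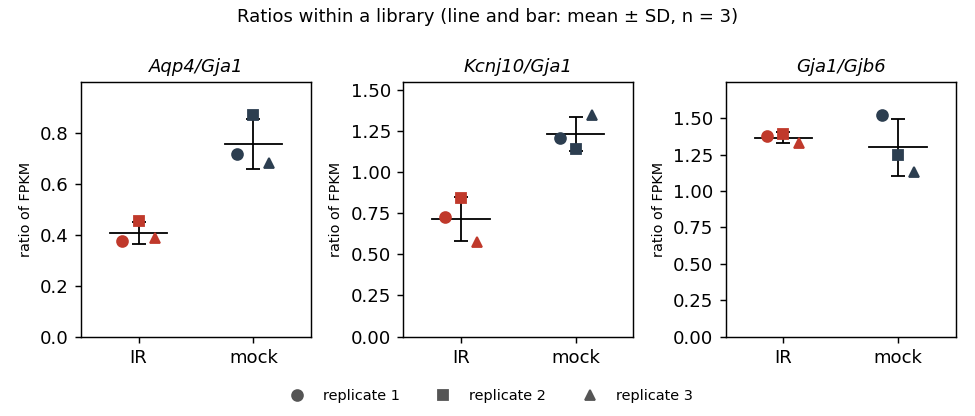
Ratio of FPKM (y axis, from 0) of 2 genes within each library, by group, with symbols for replicates 1 to 3 and the mean ± SD (n = 3). For Aqp4 to Gja1 the IR libraries lie at 0.37 to 0.46 and the mock libraries at 0.68 to 0.87, while for Gja1 to Gjb6 the groups overlap.

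None of the 3 carriers was called in limma, and 1 was at an unadjusted p under 0.05. The share of all genes tested at that level was not computed, so whether a count at it is an excess was not tested. Slc7a10, a small neutral amino acid transporter, was at 37.9, 32.1 and 23.9 FPKM in IR brains, against 42.1, 38.0 and 42.0 FPKM in mock brains. Slc39a12, a zinc transporter, was at 24.7, 25.7 and 15.3 FPKM in IR brains, against 29.0, 40.7 and 28.1 FPKM in mock brains. For both genes all IR values lay below all mock values, by little, and the log2 changes of -0.40 and -0.58 did not pass (limma adjusted p = 0.23 and 0.17). Without IR 3 they were -0.22 and -0.35, and with the telencephalon covariate that of Slc39a12 was -0.064. Slc25a18, a mitochondrial glutamate carrier, had a log2 change of 0.10 (95% interval -0.33 to 0.53). It overlaps Atp6v1e1 on the other strand, a proton pump subunit gene at 511 FPKM in IR and 372 FPKM in mock brains on average (log2 change 0.46), and whether reads were shared was not tested. In all, 8 of the 31 genes overlap a gene of the table on the other strand.

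Enzymes of astrocyte metabolism were likewise not called in limma, 0 of 7, with 1 at an unadjusted p under 0.05. Aldh1l1, the folate enzyme that is used most widely as an astrocyte marker, was at 44.7, 36.7 and 38.0 FPKM in IR brains, against 32.3, 27.6 and 41.6 FPKM in mock brains. These values overlapped, and the log2 change was 0.25 (95% interval -0.18 to 0.67). Glul, glutamine synthetase, was at 762, 717 and 584 FPKM in IR brains, against 756, 669 and 742 FPKM in mock brains, and its interval was -0.55 to 0.39. Ppp1r3c, which targets a phosphatase to glycogen, and Cbs, an enzyme of cysteine synthesis, had log2 changes of 0.03 and 0.07. Acsbg1, a fatty acyl-CoA synthetase, and Pla2g7, a lipase that degrades platelet-activating factor, had log2 changes of -0.38 and -0.39 (limma adjusted p = 0.23 and 0.37). That of Pla2g7 was -0.67 without IR 1 (limma adjusted p = 0.062) and -0.19 without IR 2.

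Aldoc, aldolase C of glycolysis (chromosome 11, 78323073 to 78327781), had the lowest estimate of the enzymes. It was at 635, 529 and 466 FPKM in IR brains, against 819, 873 and 906 FPKM in mock brains. The groups were clearly apart, but the log2 change of -0.68 (SE 0.21) missed the threshold (limma adjusted p = 0.082), and it passed only with quantile normalization among the 16 alternative fits (-0.98, adjusted p = 0.018). Aldolase C is also the zebrin II antigen of Purkinje cells. The cerebellum genes were also lower in IR, summed at 41.9 to 80.2 FPKM in IR libraries and 973 to 1329 FPKM in mock libraries. Among IR libraries, Aldoc and the library level of these genes were both highest in IR 1 and lowest in IR 3. Among mock libraries, mock 3 had the highest Aldoc and the lowest level of these genes. The part of cerebellum RNA in the Aldoc result was not tested.

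Secreted and surface proteins held the 1 gene that rose. Mfge8, which tags dying cells and debris for uptake by phagocytes (chromosome 7, 79133768 to 79149060), was at 113, 104 and 120.0 FPKM in IR brains, against 64.6, 33.8 and 55.7 FPKM in mock brains. Every IR library was above every mock library, and mock 2 was the lowest. The log2 change was 1.17 (SE 0.24, limma adjusted p = 0.025). The adjusted p was 0.095 without IR 3 (log2 change 1.12), 0.050 without mock 3 (1.25) and 0.34 with the telencephalon covariate (0.60).

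Clu, clusterin, a secreted chaperone, was at 717, 582 and 602 FPKM in IR brains, against 425, 378 and 479 FPKM in mock brains. Its groups did not overlap either, but the log2 change of 0.57 (95% interval 0.11 to 1.03) did not pass (limma adjusted p = 0.12). With quantile normalization it was 0.22 (adjusted p = 0.43). Itih3, which binds hyaluronan, was at 27.1, 24.8 and 15.0 FPKM in IR brains, against 28.3, 35.0 and 46.9 FPKM in mock brains (log2 change -0.72, limma adjusted p = 0.13). IR 1 and mock 1 nearly met, and the log2 change was -0.46 without IR 3. Agt, angiotensinogen, was spread widely within both groups, at 115, 85.0 and 47.1 FPKM in IR brains and 64.2, 93.5 and 108 FPKM in mock brains. Its log2 change of -0.16 had an interval of -0.92 to 0.59, and was 0.19 without IR 3. Htra1, a secreted serine protease, F3, tissue factor, and Gpc5, a glypican, had log2 changes of 0.22, 0.16 and 0.17 with groups that overlapped. Chrdl1, a secreted BMP antagonist that acts on synapse maturation, was at 1.66, 1.19 and 1.64 FPKM in IR brains, against 2.97, 1.19 and 2.01 FPKM in mock brains.

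The last 4 genes encode a receptor, a transcription factor and 2 regulators inside the cell. S100b, a calcium-binding protein (chromosome 10, 76253836 to 76261319), was at 209, 119 and 113 FPKM in IR brains, against 297, 407 and 371 FPKM in mock brains. IR 1 lay closest to mock, and mock 1 closest to IR. The log2 change of -1.33 (SE 0.27, limma adjusted p = 0.023) was the lowest of all 31. It was called without IR 1, but leaving out any other single library gave an adjusted p of 0.050 to 0.094, with the estimate between -1.61 and -1.17 over all 6 omissions. With the telencephalon covariate it was -0.95 (adjusted p = 0.36).

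Oligodendrocytes also make S100b. Summed over 8 of their genes, all measured in every library, the FPKM was 2425 to 4271 in IR libraries and 5175 to 6248 in mock libraries. IR 1 had the highest library level of this list among IR libraries and mock 3 among mock libraries, while S100b was highest in IR 1 and mock 2. The part of oligodendrocyte RNA in the S100b result was not tested. S100b also overlaps Dip2a on the other strand, and no source used here says whether the authors' counting used strand. The log2 change of Dip2a was -0.51 (limma adjusted p = 0.21).

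Sox9, a transcription factor that specifies the astrocyte lineage (chromosome 11, 112782210 to 112787757), was at 5.17, 2.88 and 2.68 FPKM in IR brains, against 5.12, 2.88 and 3.92 FPKM in mock brains. These values covered almost the same range, with a log2 change of -0.15 (95% interval -0.78 to 0.47). Ntsr2, a neurotensin receptor, was not called at a log2 difference of 0.27 (limma adjusted p = 0.40). Fam107a, an actin-binding protein, was at 95.6, 97.5 and 122 FPKM in IR brains, against 144, 153 and 145 FPKM in mock brains. The groups did not overlap, and the log2 change of -0.50 did not pass (limma adjusted p = 0.11).

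**Figure D3:**
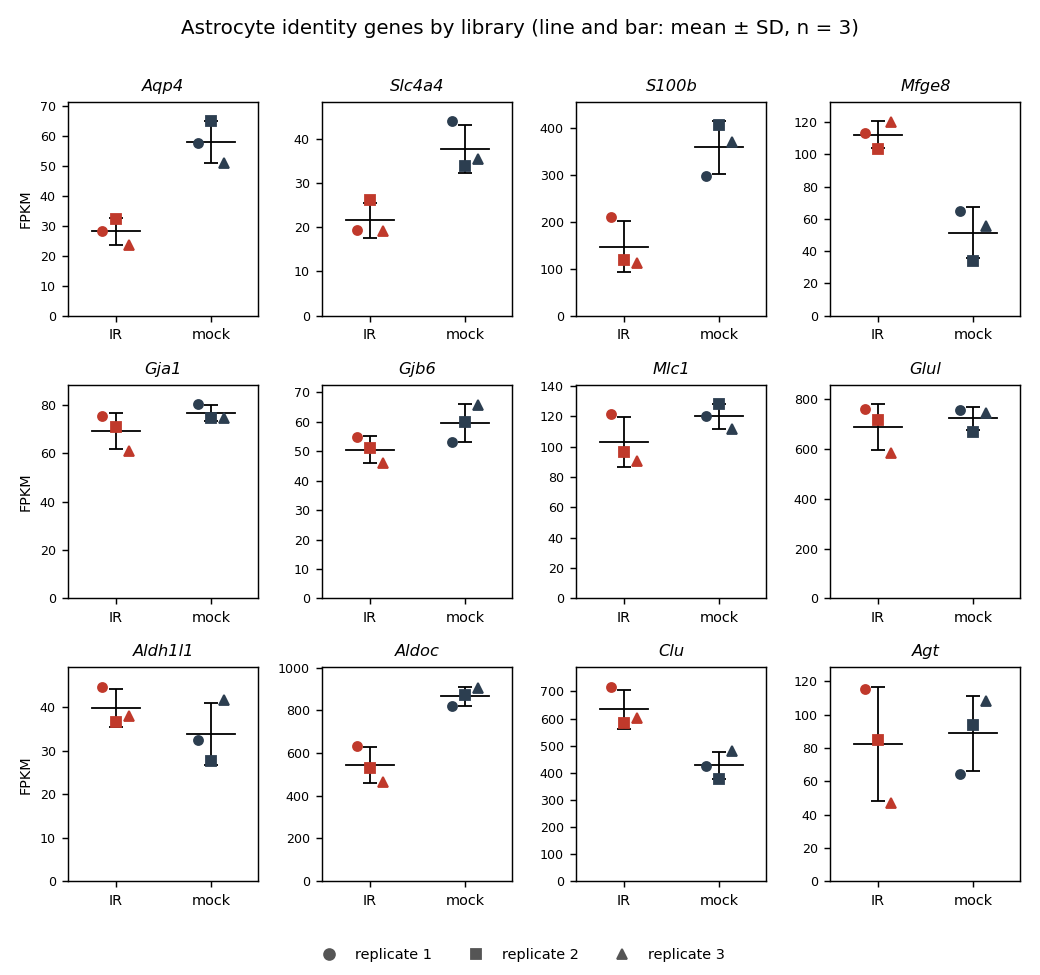
FPKM (y axis, from 0) of 12 of the 31 genes in each library, IR left and mock right, with symbols for replicates 1 to 3 and the mean ± SD (n = 3). The groups are apart for Aqp4, Slc4a4, S100b, Mfge8, Aldoc and Clu, and they overlap for Gja1, Gjb6, Mlc1, Glul, Aldh1l1 and Agt.

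Counted over the whole list, 2 genes had all IR values above all mock values and 10 had all IR values below them, 38.7% together. The background is 31.5% of all genes tested (13.7% above and 17.7% below). By direction, 6.45% of the list lay above and 32.3% below, and these differences from the background were not tested. Of the 12, 8 were not called: Clu above, and Atp1b2, Slc7a10, Slc39a12, Aldoc, Acsbg1, Itih3 and Fam107a below.

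Libraries of 1 group differed from each other in a shared way. Among IR libraries, IR 1 had the highest value for 21 of the 31 genes and IR 3 the lowest for 20. Among mock libraries, mock 3 had the highest value for 16 genes and mock 2 the lowest for 15. The median of the centred log2 values over the list was 0.10, -0.11 and -0.25 in IR 1, 2 and 3, against 0.11, 0.04 and 0.21 in mock 1, 2 and 3. IR 1 thus lay within the range of the mock libraries, and IR 2 and IR 3 below it. The summed FPKM of the list was 0.71%, 0.74% and 0.57% of the library total in IR libraries, against 0.93%, 0.91% and 0.84% in mock libraries. Those totals were 510046 to 625782 FPKM in IR libraries and 472450 to 571078 FPKM in mock libraries.

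**Figure D4:**
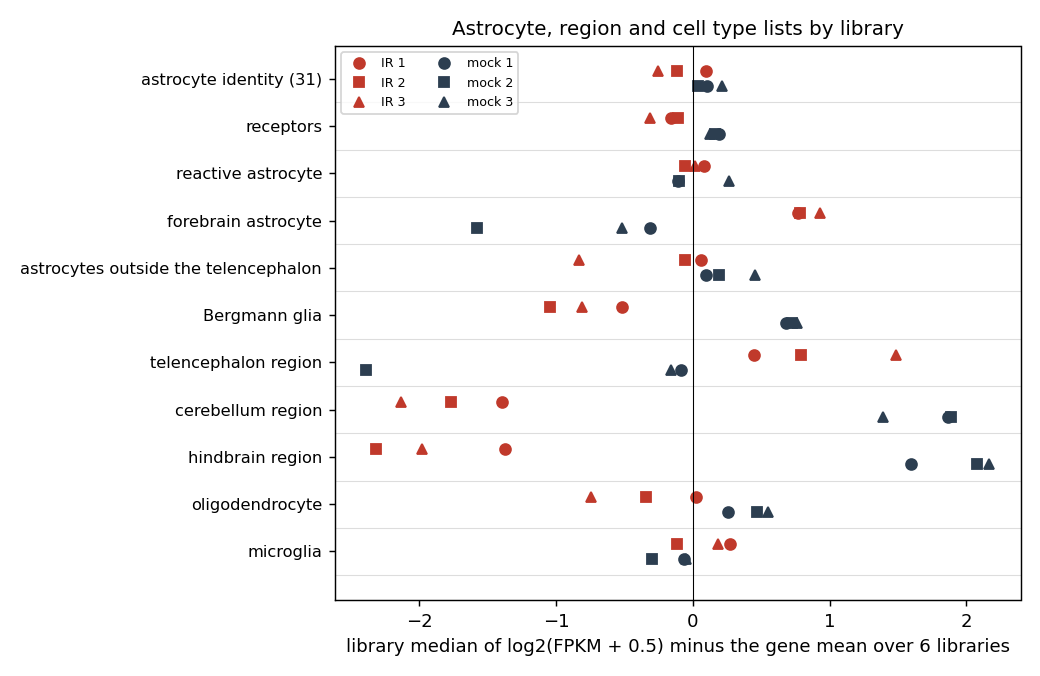
Library level of each list (x axis: median over its genes of log2(FPKM + 0.5) minus the gene's mean over 6 libraries), with IR libraries in red above mock libraries in dark blue and symbols for replicates 1 to 3. The 31 astrocyte identity genes lie between -0.25 and 0.21, while the groups are apart by over 0.5 for the forebrain astrocyte, Bergmann glia, telencephalon, cerebellum and hindbrain lists, and by less for the receptor, oligodendrocyte and outside-telencephalon lists.

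Genes that mark astrocytes of 1 region had median log2 changes of 1.66 for the telencephalon and -1.27 for Bergmann glia, beside -0.16 for the 31 genes. In the mouse Mfge8 marks astrocytes of the telencephalon, as do the transcription factors Lhx2 and Emx2, which neurons and progenitors there also use. All 3 rose, beside a background of 3.48% of all genes tested called higher. Mfge8 is also 1 of the 31 genes, and the list was chosen with earlier results of these data known. The 3 genes are therefore no independent check on Mfge8. Their library level was 0.77, 0.79 and 0.93 in IR libraries, against -0.31, -1.58 and -0.52 in mock libraries. Emx2 was at 3.21, 3.25 and 3.63 FPKM in IR brains, against 1.16, 0.23 and 1.02 FPKM in mock brains (log2 change 1.66, SE 0.30, limma adjusted p = 0.017, and 0.064 without IR 3). Lhx2 was at 27.4, 28.1 and 51.7 FPKM in IR brains, against 12.3, 2.26 and 10.3 FPKM in mock brains (log2 change 2.26, SE 0.54, limma adjusted p = 0.041). Its call was lost without IR 2 (2.40, 0.063), IR 3 (1.97, 0.14) or mock 3 (2.55, 0.054), with no filter on low values (0.081) and with robust moderation (0.074). With the telencephalon covariate neither was called: the log2 change was 0.88 for Emx2 and 0.65 for Lhx2 (limma adjusted p = 0.225 and 0.285). Mock 2 was the lowest library for all 3 genes, as it was for the telencephalon list.

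Astrocytes outside the telencephalon are marked by Agt, Itih3, the GABA transporter gene Slc6a11 and the glycine transporter gene Slc6a9, of which 0 of 4 were called in limma in either direction and 2 were at an unadjusted p under 0.05. Their summed FPKM was 156 to 311 in IR libraries and 282 to 343 in mock libraries. IR 3 was the lowest IR library for each of the 4. Slc6a9 was at 46.9, 41.6 and 22.5 FPKM in IR brains, against 68.0, 54.0 and 67.0 FPKM in mock brains. Its groups did not overlap, and the log2 change of -0.82 did not pass (limma adjusted p = 0.10). Slc6a11 was at 122, 147 and 70.8 FPKM in IR brains, against 127, 99.7 and 121 FPKM in mock brains, and its log2 change of -0.09 was 0.22 without IR 3. All 4 estimates were below 0, with a median log2 change of -0.44.

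Of the 4 Bergmann glia genes, 3 fell, beside a background of 4.24% of all genes tested called lower. Gdf10, a TGF-beta family ligand of Bergmann glia, was at 4.60, 3.08 and 4.71 FPKM in IR brains, against 34.1, 33.0 and 30.0 FPKM in mock brains. Its log2 change of -2.84 (SE 0.19, limma adjusted p = 0.00021) was called in each of the 16 alternative fits. Hopx, a homeodomain-only protein gene, was at 63.2, 49.1 and 62.9 FPKM in IR brains, against 124, 149 and 130.1 FPKM in mock brains. Timp4, a metalloproteinase inhibitor gene, was at 45.0, 45.3 and 35.6 FPKM in IR brains, against 104, 109 and 107 FPKM in mock brains. Their log2 changes of -1.20 and -1.35 (limma adjusted p = 0.0055 and 0.0024) were called in all fits but that with the telencephalon covariate (adjusted p = 0.12 and 0.062). Fabp7, a fatty acid-binding protein gene also active in the olfactory bulb, was at 226, 43.7 and 63.8 FPKM in IR brains and 176, 64.8 and 188 FPKM in mock brains. The cerebellum sums given above were also lower in IR than in mock libraries, and the part of cerebellum RNA in these results was not tested.

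**Figure D5:**
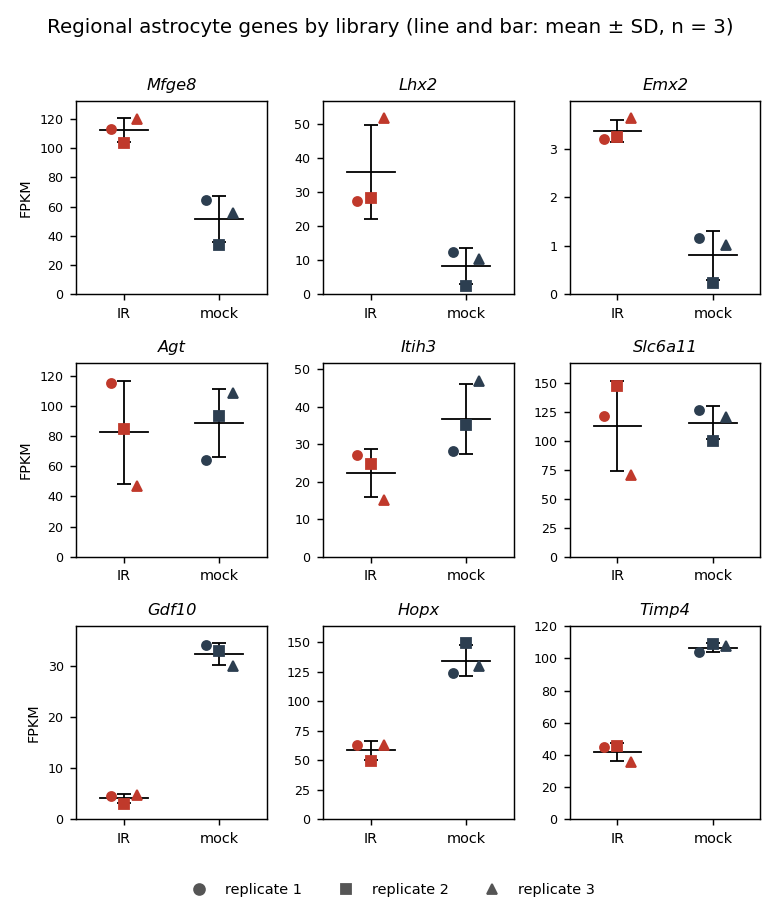
FPKM (y axis, from 0) of regional astrocyte genes in each library, IR left and mock right, with symbols for replicates 1 to 3 and the mean ± SD (n = 3); the top row marks the telencephalon, the middle row other regions and the bottom row Bergmann glia. The groups are apart in the top and bottom rows, and in the middle row they overlap for Agt and Slc6a11. Slc6a9 is not drawn.

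Other astrocyte genes, 74 in 7 lists that share no gene with the 31, also moved both ways: 3 rose and 4 fell (9.46% called, background 7.72%), with a median log2 change of -0.18. Of those that fell, 3 are ion carriers or channels. Kcnj10 was at 55.0, 60.1 and 34.8 FPKM in IR brains, against 97.3, 85.4 and 100.2 FPKM in mock brains (log2 change -0.94, SE 0.22, limma adjusted p = 0.039). Kcnj16, its channel partner, was at 8.10, 7.41 and 6.34 FPKM in IR brains, against 12.3, 11.7 and 12.7 FPKM in mock brains (log2 change -0.72, limma adjusted p = 0.030). Slc12a2, the sodium, potassium and chloride cotransporter gene, changed by -1.02 on the log2 scale (limma adjusted p = 0.031). None of these 3 calls held without IR 3 or without any 1 mock library (adjusted p of 0.066 to 0.12), and that of Kcnj16 was also lost without IR 2 (0.061). The fourth, Elovl2, an enzyme that lengthens polyunsaturated fatty acids, was at 4.30, 4.03 and 5.07 FPKM in IR brains, against 8.85, 8.93 and 8.20 FPKM in mock brains (log2 change -0.89, limma adjusted p = 0.015, and 0.068 and 0.052 without mock 1 and mock 2).

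Glutamate uptake genes were not called. Slc1a2, the main glutamate transporter gene of forebrain astrocytes, was at 70.3, 122 and 127 FPKM in IR brains, against 113, 44.1 and 89.0 FPKM in mock brains. Slc1a3, the transporter gene that prevails in Bergmann glia, was at 100.1, 94.0 and 114 FPKM in IR brains, against 163, 148 and 125 FPKM in mock brains. The estimates had opposite signs, 0.43 for Slc1a2 and -0.49 for Slc1a3 (limma adjusted p = 0.48 and 0.12), and that of Slc1a2 was -0.52 with the telencephalon covariate. Those that rose were Ldha, a lactate dehydrogenase chain gene, Slc16a3, a lactate exporter gene, and Slc25a22, a mitochondrial glutamate carrier gene, with log2 changes of 0.89, 0.94 and 0.92 (limma adjusted p = 0.039, 0.020 and 0.034). All 3 genes are also used by cells other than astrocytes, and 0 of the 3 were called without any 1 mock library or without IR 3. Without IR 2, Slc25a22 alone of these was called. The lists of endfoot and junction genes (8), transcription factors (12) and receptors (10) had 0 called in limma, with 2, 2 and 4 genes at an unadjusted p under 0.05 and median log2 changes of -0.05, -0.26 and -0.25.

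Reactive astrocyte genes, which mark the response of astrocytes to injury, had 0 of 16 called in limma, with 5 at an unadjusted p under 0.05 and a median log2 change of -0.06. Gfap, the intermediate filament gene that rises in reactive astrocytes, was at 306, 231 and 276 FPKM in IR brains, against 184, 187 and 314 FPKM in mock brains. Mock 3 was the highest library of all 6, and the log2 change was 0.28 (95% interval -0.28 to 0.85). The groups did not overlap for 8 of the 16 (50%), 4 with IR above mock and 4 with IR below. The background is 31.5% of all genes tested (13.7% above and 17.7% below), and the difference was not tested. The list held 18 genes, of which 2 were removed by the low-value filter. The 5 genes at an unadjusted p under 0.05 had log2 changes of both signs: 0.72 for Lcn2 and 0.50 for S1pr3, and -0.72 for Vim, -0.63 for Fbln5 and -0.44 for Cp (limma adjusted p of 0.12 to 0.18). With quantile normalization, that of Vim was 0.0499.

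Genes of other cell types were read in the same way, as a measure of what else the tissue held. Of 6 oligodendrocyte precursor genes 3 fell (Gpr17, Neu4 and C1ql1), and 2 of 8 oligodendrocyte genes fell, beside the background of 4.24% called lower. The precursor genes Pdgfra, Cspg4 and Sox10 were not called, with log2 changes of -0.66, 0.05 and -0.78 (limma adjusted p = 0.27, 0.93 and 0.066). At an unadjusted p under 0.05 the precursor and oligodendrocyte counts were 4 of 6 and 8 of 8, with median log2 changes of -0.89 and -0.75. No count at that level, here or elsewhere, has the share of all genes tested beside it, so whether any is an excess was not tested. The choroid plexus list had 1 of 6 called, the potassium channel subunit gene Kcne2, which fell (-1.56), and the meninges list had 1 of 5, the proteoglycan gene Dcn, which rose (0.98). Endothelium, pericyte and ependyma lists had 0 called in limma, with 1 gene each at an unadjusted p under 0.05. Neuron and microglia lists had 0 of 7 called each in limma (1 and 3 at an unadjusted p under 0.05), with median log2 changes of 0.18 and 0.14. Summed microglia genes were at 134 to 238 FPKM in IR libraries and 129.9 to 150.4 FPKM in mock libraries, and their part in the astrocyte values was not tested.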

How the data were processed

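Total RNA of 6 brains, depleted of ribosomal RNA, was sequenced from stranded libraries on a NextSeq instrument, per the labels' protocols. Per the submitters' processing notes, TopHat, Cufflinks, Cuffdiff and the mm10 build were used, with versions and strand setting not given in the sources used. The deposited table holds the authors' FPKM per gene symbol and library. Whole reads could not be recovered from it, so the depth of each library is unknown beyond one approximate range of reads in the labels, and no counting error is given; the number of mice limits the precision.

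The design text gives 3 mice per group, and each library was taken as 1 mouse. Genes averaging 0.5 FPKM or more (14585 of 23057) were compared, IR minus mock, on log2(FPKM + 0.5), a scale that understates changes of low genes, with limma 3.58.1 in R 4.3.3 (trended empirical Bayes, Benjamini-Hochberg adjustment over all genes tested, threshold 0.05), after a test on simulated data. An exact permutation test of 3 against 3 cannot go below p = 0.1 and was not used. The alternatives were other pseudocounts, filters, centring, quantile normalization, robust moderation, a block, a telencephalon covariate, a threshold of 0.1 and omitted libraries. The 31 genes and all lists were chosen with earlier results of these data known. Named are all 31, up to 3 genes with the smallest p in each other list, and Gfap, Slc1a2, Slc1a3, Slc6a11, Gdf10, Lhx2 and Emx2. Fabp7, Dip2a, Atp6v1e1, Lcn2, Cp, Pdgfra, Cspg4 and Sox10 were added after their values were seen. Some genes the rule allows are given only in counts. Promoter sequences and gene coordinates are from RefSeq (GRCm38.p6), and overlaps between genes are from GENCODE.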

Additional observations from a re-analysis of the deposited data

How the results depend on the processing

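Limits: 3 mice a group and unknown depth per library set the precision, and RNA of genes that mark brain regions differed between the groups. Where a count or sign changed with a setting, the cause was not tested. Omitting libraries leaves fewer samples, and the telencephalon covariate lay apart between the groups. Over all genes, 508 were called higher and 618 lower. The counts were 36 and 109 with the telencephalon covariate, and 1002 and 1149 at an adjusted p under 0.1. They were 643 and 626 with quantile normalization and 357 and 509 with no filter on low values. With IR 1 and mock 2 left out together they were 620 and 672, and with 1 library left out 147 to 673 and 254 to 695. Among the 31 genes (1 higher, 3 lower), 0 and 0 were called with the covariate, 0 to 1 and 0 to 2 with 1 library left out, 7 lower with quantile normalization and 5 lower at an adjusted p under 0.1. Among the 74 other astrocyte genes (3 higher, 4 lower), the counts were 0 and 0 with the covariate, 1 and 2 with no filter on low values, 1 and 8 with IR 1 and mock 2 left out together, 11 lower at an adjusted p under 0.1, and 0 to 3 and 0 to 6 with 1 library left out. Deviations from the group means correlated at r of -0.33, 0.19 and 0.20 between libraries numbered 1, 2 and 3, and at -0.49 to 0.23 between other pairs. With 3 libraries a group, this cannot tell whether the numbers pair the samples. With the replicate number as a block, 394 genes were called lower in all, 1 of the 31 and 2 of the 74. Some estimates near 0 changed sign, none of them called: with quantile normalization Slc25a18 (-0.081) and Htra1 (-0.0068); with the covariate Cbs (-0.073), Agt (0.26), Htra1 (-0.066) and Slc1a2 (-0.52); with IR 1 and mock 2 left out Cbs (-0.15). With 1 library left out, the log2 change ranged from -0.026 to 0.25 for Slc25a18, -0.048 to 0.14 for Ppp1r3c, -0.16 to 0.035 for Glul, -0.046 to 0.15 for Cbs, -0.45 to 0.19 for Agt, -0.030 to 0.35 for F3, -0.42 to 0.025 for Sox9 and -0.31 to 0.22 for Slc6a11. Slc4a4 was called in 7 of 16 alternative fits, S100b in 9, and Aqp4 and Mfge8 in 13 each.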
